A study of Mus musculus with 22 samples.

Results

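The 9 genes described here, Ifitm1, Ifitm2, Ifitm3, Ifit1, Ifit2, Ifit3, Isg15, Irf1 and Irf7, are a short list of genes that interferons are known to induce. They were followed in subcutaneous loose connective tissue of the trunk of the mouse, measured on oligonucleotide arrays. A gene counted as measured when a probe of the array was annotated to it alone, and 8 of the 9 met that rule, out of 12384 genes with a probe of their own and 22626 probes tested. The only probe annotated to Isg15 is also annotated to Gm9706, so Isg15 has no value below. Each of the other 8 genes had exactly 1 probe of its own, so no choice between probes was needed.

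All mice were male C57BL/6 animals of 19 to 24 g. From each animal 1 piece of tissue was stretched and 1 was shortened, with the assignment randomised. In 7 animals the tissue was held in the body (in vivo) and in 4 others it was held outside the body (ex vivo), which gave 22 samples in 4 groups. The labels used here say nothing of how hard or how long the tissue was stretched, and name no genetic alteration or drug in any group. The unit of replication was the animal, and stretched and shortened pieces were compared within animals. The pieces were whole tissue, so fewer cells of a type and less RNA per cell cannot be told apart in any value below.

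Interferons are secreted proteins that cells release on sensing viral nucleic acids, tissue damage or other danger signals. Type I interferons bind the receptor formed by Ifnar1 and Ifnar2 and act on target genes through the interferon-stimulated response element. Interferon gamma has a receptor of its own and acts on target genes through the gamma-activated site. The Ifitm genes encode small membrane proteins that hinder the entry of enveloped viruses. The Ifit genes encode cytosolic proteins with tetratricopeptide repeats that bind viral RNA, and Isg15 is a ubiquitin-like protein that is joined to other proteins. Irf1 and Irf7 encode transcription factors, of which Irf1 responds to interferon gamma and Irf7 amplifies the production of type I interferon. Fibroblasts and macrophages, main cell types of loose connective tissue, both respond to interferons.

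The promoters of these genes show which of the response elements lie close to the transcription start. The windows ran from 250 bases before to 50 bases after each annotated start (RefSeq, GRCm38.p6), and both strands were searched. The interferon-stimulated response element was searched as GAAANNGAAA, which 3.44% of all 32851 windows hold. The gamma-activated site was searched as TTCNNNGAA, which 8.3% hold. The upstream 250 bases of 4 genes are shown 5′ to 3′ in the direction of transcription, with matches in capitals: Ifit1 and Ifit3 because each holds a pair of response elements, Irf1 for its gamma-activated site, and Ifitm1 because it has no match and, in the values below, differed with opposite sign between stretched and shortened tissue in the 2 settings.
Ifit1, chr19:34640639-34640888, plus strand: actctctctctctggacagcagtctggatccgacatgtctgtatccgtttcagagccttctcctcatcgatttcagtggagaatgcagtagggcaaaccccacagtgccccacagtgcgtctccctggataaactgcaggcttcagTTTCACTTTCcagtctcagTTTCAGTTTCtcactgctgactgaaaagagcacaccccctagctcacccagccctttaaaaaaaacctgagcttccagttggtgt
Ifit3, chr19:34583279-34583528, plus strand: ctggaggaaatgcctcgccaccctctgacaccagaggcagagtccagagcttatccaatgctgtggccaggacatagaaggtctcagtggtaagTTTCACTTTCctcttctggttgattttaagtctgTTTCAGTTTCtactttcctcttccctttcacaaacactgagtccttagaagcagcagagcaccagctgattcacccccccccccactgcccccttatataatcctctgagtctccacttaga
Irf1, first annotated start, chr11:53769764-53770013, plus strand: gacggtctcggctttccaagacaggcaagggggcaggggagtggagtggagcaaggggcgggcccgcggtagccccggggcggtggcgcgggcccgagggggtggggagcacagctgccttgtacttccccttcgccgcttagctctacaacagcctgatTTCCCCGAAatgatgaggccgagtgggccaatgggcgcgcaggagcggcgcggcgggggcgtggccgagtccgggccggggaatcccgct
Ifitm1, chr7:140967826-140968075, plus strand: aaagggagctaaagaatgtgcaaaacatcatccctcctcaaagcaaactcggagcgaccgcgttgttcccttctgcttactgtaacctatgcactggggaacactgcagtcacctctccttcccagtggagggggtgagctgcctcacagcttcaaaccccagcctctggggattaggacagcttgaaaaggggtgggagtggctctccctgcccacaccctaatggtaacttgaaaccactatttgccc

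In Ifit1 the matches to the response element lay at -104 to -95 and -85 to -76 from the start, and in Ifit3 at -156 to -147 and -122 to -113, both on the opposite strand. Windows with 2 or more such matches made up 0.225% of all windows. Within each pair, the matched letters of the distal element were TTTCACTTTC in both genes and those of the proximal element TTTCAGTTTC in both. Isg15 held 3 overlapping matches between -78 and -57, and Ifitm2 held 1 at -46 to -37. Ifitm3 had its 2 matches just past the start, at 3 to 12 and 20 to 29, with a match to the gamma-activated site between them that overlaps the second by 3 bases. Irf1 had a gamma-activated site at -90 to -82 and Ifit2 had one at -241 to -233, in each case at the first of 2 annotated starts. Ifitm1 and Irf7 held neither motif in these windows, nor did the second starts of Ifit2 and Irf1. A match describes the letters only and is no evidence of binding in this tissue.

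**Figure D1:**
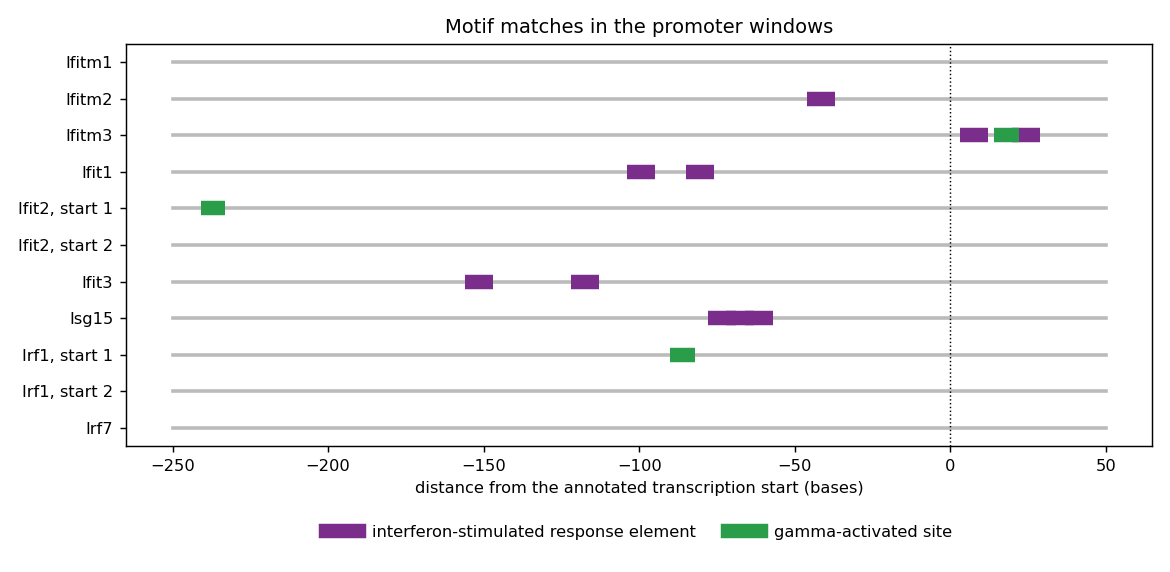
Matches to the interferon-stimulated response element (purple) and the gamma-activated site (green) in the promoter windows, by distance in bases from the annotated transcription start (dotted line). Each grey line is 1 window, and genes with 2 annotated starts have 2 lines; Ifit1, Ifit3 and Isg15 hold upstream pairs or clusters of response elements, whereas the windows of Ifitm1 and Irf7 are empty.

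Several features of the samples bear on the values that follow. Sample medians over all probes were 7.28 to 7.41 in vivo and 6.85 to 6.90 ex vivo on the deposited log2 scale. The difference between the 3′ and the 5′ control probes for Gapdh, a sign of RNA degradation, was 0.11 to 0.27 in in vivo animals 1 to 3, 0.87 to 3.61 in in vivo animals 4 to 7, and 0.05 to 0.91 ex vivo. The labelled connective tissue was checked by its markers, Pdgfra, a fibroblast receptor, at 11.39 to 12.37, and Col1a1, a collagen chain, at 10.61 to 13.46. Macrophage markers were present as well: Csf1r stood at 12.94 to 13.35 in vivo and 8.86 to 10.50 ex vivo. Skeletal muscle RNA varied from piece to piece, with Acta1 between 5.52 and 13.74, and the mean of 20 muscle markers was higher in the stretched piece of 5 of 7 animals in vivo and 3 of 4 ex vivo. The pieces differed most in in vivo animals 5 and 6 and ex vivo animals 3 and 4, called the muscle-rich pairs below. The name refers to the difference between their pieces only, since other animals also had pieces with much muscle RNA. Without these pairs only animals 1 and 2 are left ex vivo. The part of muscle content in the stretch results below was not tested beyond the alternatives given with them.

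In vivo, every one of the 8 measured genes had a lower mean in stretched than in shortened tissue, and none passed the test. No probe of the array did: 0 of 22626 (0.0%) had an adjusted p below 0.05 (limma, animals as blocks, Benjamini-Hochberg adjustment). The 8 differences had a median of -0.21 on the log2 scale, against -0.01 over all genes, of which 55.2% were lower. At an unadjusted p below 0.05, 6 of the 8 genes were lower and none higher, where 11.4% of all probes were lower at that threshold.

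Ifitm1 had the largest of these differences. In shortened tissue in vivo its signal ran from 8.89 to 9.08 with a median of 8.995, and in stretched tissue from 8.40 to 8.87 with a median of 8.59. The groups did not overlap, and the stretched piece was the lower one in 7 of 7 animals. Over all probes, 0.0309% had all stretched samples below all shortened ones, and 3.68% were lower in all 7 animals. The fitted difference was -0.34 ± 0.07 (SE, n = 7 animals; limma adjusted p = 0.172).

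The Ifit genes, whose products bind viral RNA, followed with smaller differences. Ifit2 ran from 9.28 to 9.85 in shortened tissue (median 9.74) and from 9.05 to 9.60 in stretched tissue (median 9.29). The 2 ranges overlapped, and the stretched piece was lower in 6 of 7 animals, with a difference of -0.32 ± 0.08 (SE, n = 7; limma adjusted p = 0.172). Ifit1 ran from 10.17 to 10.61 (median 10.37) against 9.86 to 10.45 (median 10.17), lower in 6 of 7 animals, a difference of -0.24 ± 0.07 (SE; limma adjusted p = 0.172). For Ifit3 the difference was -0.21 ± 0.07 (SE; limma adjusted p = 0.175), again lower in 6 of 7 animals. The animals in which the stretched piece was the higher one were animal 6 for Ifit1 and Ifit2 and animal 4 for Ifit3.

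Among the transcription factors, Irf7 was lower in the stretched piece of 5 of 7 animals, with differences from -0.77 to 0.20, and its fitted difference was -0.21 ± 0.10 (SE; limma adjusted p = 0.262), or -0.12 without animal 3. Irf1 differed by -0.02 ± 0.05 (SE; limma adjusted p = 0.897) and was lower in 4 of 7 animals. The other 2 Ifitm genes had smaller differences, Ifitm2 of -0.11 ± 0.05 and Ifitm3 of -0.10 ± 0.04 (SE; limma adjusted p = 0.240 and 0.189), the latter -0.04 with the muscle markers as a covariate.

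The in vivo differences were not the same size in all animals. In animals 1 to 3, with the small Gapdh difference, the mean change with stretch was -0.42 for Ifit1, -0.40 for Ifit3, -0.43 for Irf7, -0.46 for Ifit2 and -0.42 for Ifitm1. In animals 4 to 7 it was -0.11, -0.07, -0.05, -0.22 and -0.28 for the same genes. Not every gene had the larger drop in animals 1 to 3. Ifitm2 had -0.17 there and -0.06 in animals 4 to 7, and Irf1 had -0.02 and -0.01. Ifitm3 went the other way, with -0.07 and -0.12. Shortened tissue itself differed between these sets: Irf7 stood at 10.40 to 10.71 in animals 1 to 3 and at 9.90 to 10.04 in animals 4 to 7. The difference between the sets was not tested, and RNA quality and animal cannot be told apart in it. Of the macrophage markers 13 of 13 were also lower in stretched tissue in vivo, with a median of -0.13, and of the fibroblast markers 12 of 12, with a median of -0.10. In the same comparison 9 of 10 endothelial markers were higher, with a median of 0.35, and 7 of 7 adipocyte markers, with a median of 0.51, and none of these markers passed the test. Their part in the lower values of the interferon-induced genes was not tested.

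Ex vivo, the 8 genes did not share a direction: 4 were higher and 4 lower in stretched tissue, with a median difference of -0.0025 against 0.01 over all genes. Again no probe of 22626 (0.0%) passed the test. At an unadjusted p below 0.05 there were 3 genes, Ifitm1 higher and Ifit2 and Irf1 lower, where 11.1% of all probes reached that threshold in either direction.

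Ifitm1 was the gene with the largest difference in this setting too, with the opposite sign. In shortened tissue animals 1 to 4 had 9.71, 8.70, 9.42 and 9.14, and in stretched tissue 10.04, 9.998, 10.08 and 9.52. The stretched piece was higher in 4 of 4 animals, by 0.33, 1.30, 0.65 and 0.38, although the groups overlapped because the shortened piece of animal 1 was above the stretched piece of animal 4. The difference was 0.67 ± 0.17 (SE, n = 4 animals; limma adjusted p = 0.363). It was 0.45 without animal 2, whose shortened piece was the lowest. Ifitm2 was also higher in 4 of 4 animals, by 0.01 to 0.49 (0.19 ± 0.09, SE; limma adjusted p = 0.476), a difference that was 0.09 without animal 2. Ifitm3 lay between 13.36 and 13.44 in all ex vivo samples and differed by 0.03 ± 0.05 (SE).

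Irf1 had the largest negative difference. Its shortened pieces stood at 10.81, 10.88, 11.61 and 10.93 and its stretched pieces at 10.97, 10.59, 10.66 and 10.18, so that the stretched piece was lower in 3 of 4 animals. The difference was -0.46 ± 0.18 (SE, n = 4; limma adjusted p = 0.431). The high shortened value belonged to animal 3, and without that animal the difference was -0.29. The muscle marker mean differed between the pieces of animals 3 and 4 by 4.38 and 4.77. Without those animals the Irf1 difference was -0.06, but only animals 1 and 2 were then left, with opposite signs (0.16 and -0.29). With the muscle markers as a covariate it was -0.08. Irf7 differed by 0.10 ± 0.06 (SE; limma adjusted p = 0.621).

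Of the Ifit genes, Ifit2 had the largest difference ex vivo. Its shortened pieces had 12.26, 12.47, 12.54 and 12.56 and its stretched pieces 12.11, 12.42, 12.33 and 11.99. The stretched piece was lower in 4 of 4 animals and the groups overlapped, with a difference of -0.25 ± 0.09 (SE; limma adjusted p = 0.421). The difference was -0.14 without animal 4, -0.10 without the muscle-rich pairs and -0.11 with the muscle markers as a covariate. Ifit1 differed by -0.06 ± 0.09 (SE) and Ifit3 by -0.03 ± 0.06 (SE), and both differences were above 0 without animal 4 (0.03 and 0.01).

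**Figure D2:**
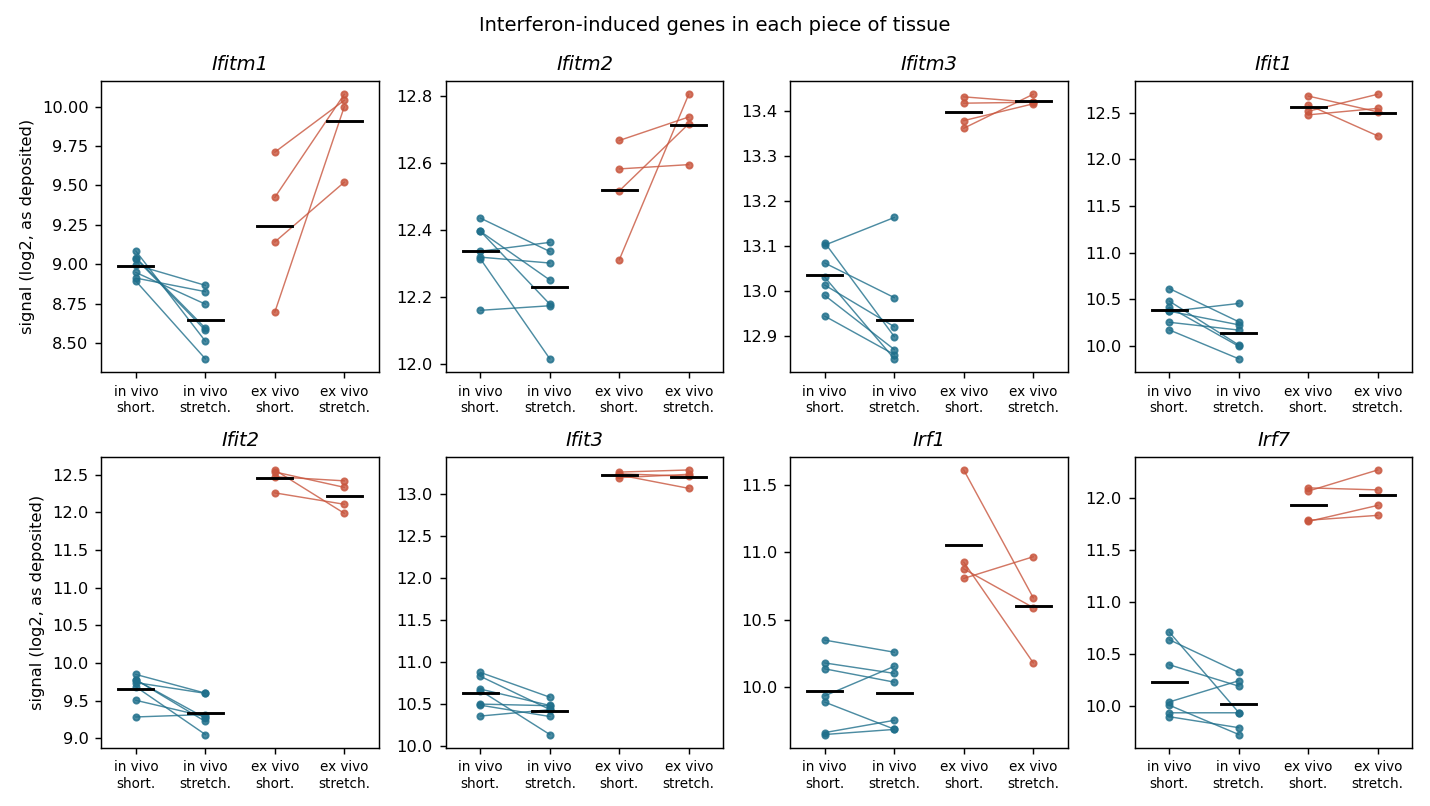
Signal of the 8 measured genes in every piece of tissue (log2, as deposited; the axes differ between panels), in the groups in vivo shortened, in vivo stretched, ex vivo shortened and ex vivo stretched. Each line joins the 2 pieces of 1 animal (7 in vivo, 4 ex vivo) and black bars are group means; the Ifit genes and Irf7 separate the 2 settings, and Ifitm1 slopes down in 7 of 7 animals in vivo and up in 4 of 4 ex vivo.

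The difference between the 2 stretch effects was tested directly in a model over all 22 samples. Ifitm1 was the only one of the 8 genes that passed: its effect was 1.01 ± 0.17 higher ex vivo than in vivo (SE, n = 4 and 7 animals; limma adjusted p = 0.0464), 1 of 40 probes called on the array (0.177%). The call was close to the threshold. It was kept under 6 of 20 alternatives, and the adjusted p ranged from 0.0125 to 0.180. It was lost without any 1 of the 7 in vivo animals (0.0723 to 0.117), without ex vivo animal 2 (0.131, with a difference of 0.79) or 3 (0.176), and without the replicate block (0.128). Its direction was the same under all 20. Ifitm2 differed by 0.30 ± 0.09 (SE; limma adjusted p = 0.160), or 0.20 without ex vivo animal 2, and Irf1 by -0.44 ± 0.17 (SE; limma adjusted p = 0.247). Without ex vivo animal 1 the Irf1 difference was -0.64 and passed the test (limma adjusted p = 0.0281), and without the muscle-rich pairs it was -0.04. For the Ifit genes the effects differed by 0.08 (Ifit2) to 0.18 (Ifit3), with adjusted p-values of 0.439 to 0.834.

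Pdgfra was the gene whose signal varied most like that of Ifitm1 within the groups, with a Pearson r of 0.878 over the 22 samples after the group means were taken out. Its ex vivo shortened pieces had 12.37, 11.40, 12.03 and 11.68, and its stretched pieces 12.27, 12.06, 12.35 and 11.39. Animal 2, with the lowest Ifitm1 among the shortened pieces, also had the lowest Pdgfra there. Pdgfra was picked as the closest of 12384 genes over these same samples, so this likeness in animal 2 is no separate evidence. The stretched piece had the higher Pdgfra signal in 2 of 4 animals ex vivo. The stretch difference of Pdgfra was 0.15 ± 0.15 ex vivo (SE; limma adjusted p = 0.762) and -0.15 ± 0.05 in vivo (SE; limma adjusted p = 0.181). Pdgfra did not stand for the fibroblast markers as a whole: of the 12, 6 were higher and 6 lower in stretched tissue ex vivo, with a median of 0.02, and their mean was lower in the stretched piece of 3 of 4 animals. The part of fibroblast content in the Ifitm1 result was not tested.

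**Figure D3:**
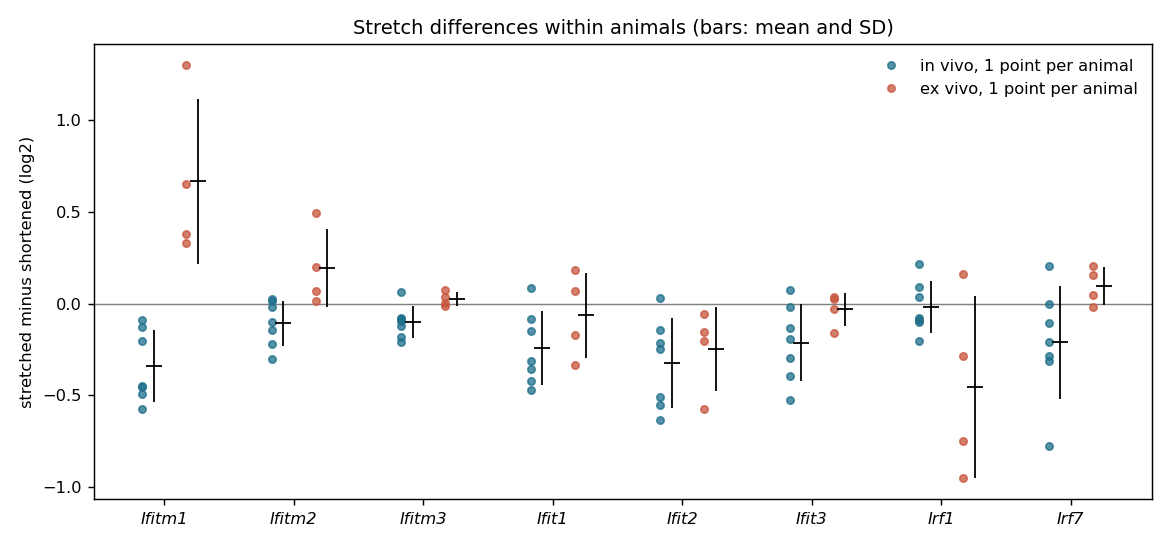
Stretched minus shortened signal (log2) within each animal for the 8 measured genes, in vivo (blue, 7 animals) and ex vivo (red, 4 animals), with the mean and SD of the animals in black. The points of Ifitm1 lie wholly below 0 in vivo and wholly above it ex vivo, and those of the other genes overlap between the settings.

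Between the settings, all 8 genes differed. In shortened tissue each passed the test and was higher ex vivo than in vivo, where 33.5% of all probes were called higher and 33.9% lower (limma, different animals, Benjamini-Hochberg adjustment). The median change of all probes, -0.38 on the log2 scale, was taken off each difference. The median of the 8 genes was 1.78 against -0.09 over all genes, and 4 of them, Ifit1, Ifit2, Ifit3 and Irf7, were called higher by at least 2, as were 2.7% of all probes. Setting and animals changed together and cannot be told apart, and whether the arrays of both settings were processed together is not given in the sources used here.

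The 3 Ifit genes had the largest differences. Means here are as deposited. Differences and folds are after the median change of -0.38 was taken off, so they exceed the gap between the means. Under the alternatives, no centring among them, the difference was at least 2.80 for Ifit2, 2.60 for Ifit3 and 2.18 for Ifit1. Ifit2 rose from a mean of 9.66 ± 0.20 (SD, n = 7) to 12.46 ± 0.14 (SD, n = 4), a difference of 3.18 ± 0.11 (SE) or 9.08-fold (limma adjusted p = 1.907e-10). Ifit3 rose from 10.63 ± 0.19 to 13.23 ± 0.03 (SD), a difference of 2.98 ± 0.09 (SE) or 7.90-fold (limma adjusted p = 1.095e-10). Ifit1 rose from 10.38 ± 0.15 to 12.56 ± 0.09 (SD), a difference of 2.57 ± 0.08 (SE) or 5.92-fold (limma adjusted p = 1.257e-10). No ex vivo sample of these genes came near the in vivo range: the lowest Ifit1 value ex vivo was 12.25 and the highest in vivo 10.61. Within the groups the Pearson correlation over the 22 samples was 0.625 for Ifit1 with Ifit3, 0.194 for Ifit1 with Ifit2 and 0.0095 for Ifit2 with Ifit3.

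The transcription factors rose as well, again with means as deposited and with differences and folds after centring. Under the alternatives, no centring among them, the Irf7 difference was at least 1.70. Irf7 went from 10.23 ± 0.34 to 11.93 ± 0.17 (SD), a difference of 2.08 ± 0.17 (SE) or 4.24-fold (limma adjusted p = 2.91e-07). Irf1 went from 9.97 ± 0.26 to 11.06 ± 0.37 (SD), a difference of 1.47 ± 0.17 (SE) or 2.77-fold (limma adjusted p = 8.418e-06). In vivo animals 1 to 3, whose Gapdh control probes resembled those of the ex vivo samples, had up to 10.71 for Irf7 and 10.35 for Irf1 in shortened tissue, below every ex vivo shortened value of the same gene.

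The Ifitm genes changed least. Ifitm3 rose by 0.74 ± 0.04 (SE; limma adjusted p = 1.07e-08) and Ifitm2 by 0.57 ± 0.07 (SE; limma adjusted p = 1.512e-05), which without centring were 0.36 and 0.18 (limma adjusted p = 5.28e-06 and 0.0333). For Ifitm1 the difference was 0.64 ± 0.15 (SE; limma adjusted p = 0.00217), and without centring on the median change it was 0.26 and did not pass (limma adjusted p = 0.140). On the scale as deposited, all ex vivo samples lay above all in vivo ones in shortened tissue for 6 of the 8 genes, the exceptions being Ifitm1 and Ifitm2. That held for 13.3% of all probes.

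Stretched tissue gave the same calls, with all 8 genes higher ex vivo where 32.6% of all probes were called higher. The values were 3.26 for Ifit2, 3.16 for Ifit3, 2.75 for Ifit1, 2.39 for Irf7, 1.65 for Ifitm1, 1.03 for Irf1 and 0.87 for both Ifitm2 and Ifitm3. The order of the 4 groups was therefore in vivo stretched, in vivo shortened, ex vivo shortened and ex vivo stretched for the 3 Ifitm genes and Irf7, and the 2 ex vivo groups changed places for the Ifit genes and Irf1. Neighbouring groups of 1 setting did not differ beyond the test for any of the 8 genes.

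The other genes of the interferon pathway were read from 9 lists by role, of which 104 of 137 genes were measured. In shortened tissue 80 of the 104 rose ex vivo and 17 fell, with a median of 1.17, where 33.5% of all probes were called higher and 33.9% lower. Without centring 72 rose and 22 fell, with a median of 0.78, where 17.4% of all probes were called higher and 55.7% lower. All 3 CXC chemokines that interferons induce, attractants of T cells, rose: Cxcl10 by 6.00 ± 0.13 (SE; limma adjusted p = 6.575e-12), from 6.74 to 12.36 as deposited, and Cxcl11 by 4.02 ± 0.23 (SE), from 5.15 to 8.78 as deposited. Both in vivo means lie below the in vivo sample medians. That of Cxcl11 lies well below and may be background, so the size of its change is uncertain. All 9 guanylate-binding proteins and immunity-related GTPases rose, with a median of 2.24, among them Gbp6 by 3.11 ± 0.13 and Gbp7 by 2.16 ± 0.06 (SE). All 11 antigen processing genes rose by a median of 0.70. They included the peptide-loading factor Tapbp (1.27 ± 0.07) and the class I light chain B2m (0.56 ± 0.04). Without centring 8 of the 11 rose, with a median of 0.32. Of 33 other antiviral genes 29 rose and 3 fell, with Cmpk2 at 3.16 ± 0.09 and Usp18, which removes Isg15 from proteins, at 1.96 ± 0.06 (SE).

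Upstream of the target genes, 4 of 8 interferon genes rose and none fell, and without centring 3 rose and 2 fell. In shortened tissue Ifna2, Ifna4 and Ifna9 had mean signals of 4.98, 3.39 and 4.79 in vivo and 5.12, 3.92 and 5.16 ex vivo. These means lie below every sample median in both settings and may be background. Ifnb1, which encodes interferon beta, stood between 4.41 and 4.96 in shortened tissue in vivo and at 6.63, 6.89, 8.35 and 7.51 ex vivo (limma adjusted p = 5.735e-07). The in vivo values lie well below the sample medians and the deposited values carry no detection call, so they may be background, and the fitted difference of 3.05 ± 0.26 (SE) is then no measure of the size of the change. Among 8 receptor and Janus kinase genes 3 rose and 3 fell, shares close to those of all probes, for example Jak2 by 1.18 ± 0.09 and the interferon gamma receptor chain Ifngr1 by -1.11 ± 0.07 (SE). Of 9 transcription factors 5 rose and 4 fell, with Irf9 at 1.38 ± 0.08 and Batf2 at 1.72 ± 0.11 (SE). The largest change on that list was a fall, Irf4 at -2.76 ± 0.19 (SE). Of 14 sensors and adaptors 11 rose and 3 fell, with the RNA sensor Ifih1 at 1.56 ± 0.07 and Ifi204 at 2.20 ± 0.14 (SE). Of 9 feedback inhibitors 5 rose and 4 fell. Those that rose included Socs1 at 3.09 ± 0.28 and Socs3 at 2.97 ± 0.24 (SE). Those that fell included the phosphatase Ptpn6 at -1.96 ± 0.09 and Pias1 at -1.36 ± 0.07 (SE).

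**Figure D4:**
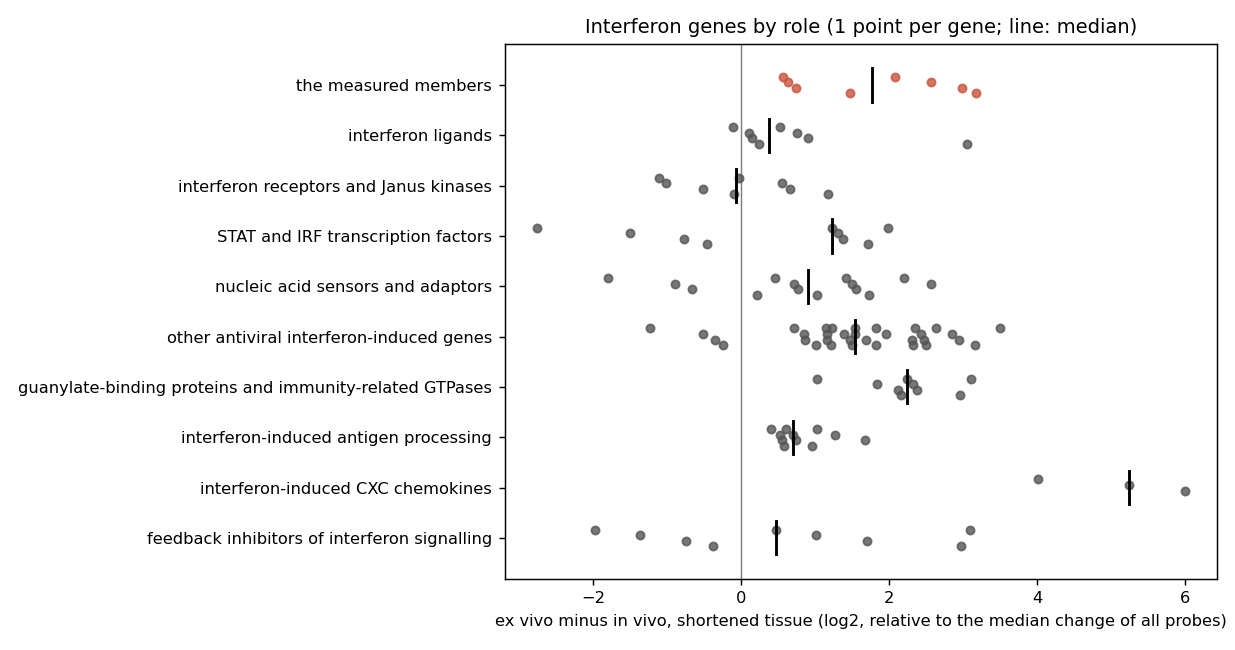
Ex vivo minus in vivo difference in shortened tissue (log2, less the median change over all probes) for the 8 measured genes (red) and the 104 other measured interferon genes (grey) by role, 1 point per gene, with the median of each row in black. The CXC chemokines lie farthest to the right, with a median of 5.25, and the receptors and Janus kinases lie around 0.

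Marker genes of several cell types differed between the settings too. Against the 33.9% of all probes called lower and the 33.5% called higher, 11 of 13 macrophage markers fell ex vivo and 1 rose, and their mean was 11.29 to 11.85 in vivo against 8.09 to 9.35 ex vivo. Fibroblast markers fell in 9 of 12 cases and rose in 2 (10 and 0 without centring), with means of 11.85 to 12.33 in vivo and 10.47 to 11.05 ex vivo. Lymphocyte markers, with means of 4.58 to 6.31, fell in 9 of 13 cases and rose in 2. The 5 markers of plasmacytoid dendritic cells, strong producers of type I interferon, had means of 6.39 to 6.71 in all groups. Single markers of that list did not stay level: 2 rose and 1 fell (2 and 3 without centring), with differences from -1.18 to 2.31, the latter for Bst2. Adipocyte markers fell in 5 of 7 cases, whereas endothelial and neutrophil markers each rose in 5 cases and fell in 2, of 10 and 9. Without centring 3 endothelial markers rose and 3 fell, and 1 neutrophil marker rose and 4 fell. The neutrophil marker means were 4.95 to 5.77. Like those of the lymphocyte and plasmacytoid dendritic cell markers, they lie below every sample median, so part of these signals may be background. Bst2, on the list for plasmacytoid dendritic cells, is itself induced by interferon and stands on the antiviral list. The part of cell composition in the higher interferon-induced signals was not tested.

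With stretch, none of the 104 pathway genes passed the test in either setting. In vivo 89 of them were lower and 15 higher, with a median of -0.10, beside the 55.2% of all genes that were lower, and among the other antiviral genes 32 of 33 were lower with a median of -0.12. Examples were Usp18 at -0.21 ± 0.05 and Zbp1, a nucleic acid sensor, at -0.28 ± 0.08 (SE; limma adjusted p = 0.172 for both), each lower in 7 of 7 animals. The exception in size was Cxcl9, at 0.98 ± 0.21 (SE; limma adjusted p = 0.172). Ex vivo 65 were lower and 39 higher with a median of -0.07, where 47.6% of all genes were lower. The guanylate-binding proteins and immunity-related GTPases were lower in 9 of 9 cases there, with a median of -0.28, and Mx2, an antiviral GTPase, at -0.56 ± 0.12 (SE; limma adjusted p = 0.352) was lower in 4 of 4 animals.

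Ifnb1 itself was 6.01, 6.73, 6.12 and 6.84 in the stretched pieces ex vivo, below the shortened piece of the same animal in 4 of 4 cases. The difference was -0.92 ± 0.32 (SE; limma adjusted p = 0.401). The widest gap by far was that of animal 3, from 8.35 shortened to 6.12 stretched, which belongs to the muscle-rich pairs. Animal 3, with the highest shortened Ifnb1 value, was also the animal with the highest shortened Irf1 value. None of the 104 genes passed the test of the difference between the stretch effects, which 0.177% of all probes passed. At so small a share, no call among 104 genes says little about the pathway.

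Within the groups the 8 genes varied together only in part. After the group means were taken out, pairwise Pearson correlations over the 22 samples ran from -0.45 (Ifitm3 with Ifit3) to 0.66 (Ifitm3 with Ifit2). Ifit3 and Irf7 had an r of 0.612 and Ifitm1 and Ifitm2 one of 0.591. The genes most alike by the same measure were Ppp1r21 for Ifitm2 (r = 0.821), Mtbp for Ifitm3 (0.888), Mypop for Ifit1 (0.812), Lefty1 for Ifit2 (0.838), Virma for Ifit3 (0.790), Bcl3 for Irf1 (0.838) and Glb1l for Irf7 (0.901). Each was the highest among 12384 genes over samples that share animals and arrays, so the values describe these samples only.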

How the data were processed

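Total RNA of 22 pieces of tissue from 11 animals was measured on oligonucleotide arrays. The deposited values are log2 expression signals, 1 per probe and sample, which the authors made with RMA and the affy package, per the submitters' processing notes; versions, background steps and whether both settings were processed together are not given in the sources used here. RMA aligns signal distributions, so medians that differ between settings affect any level compared across them. Of 22690 probes, 64 control probes were left out. Gene names came from the platform annotation, in which 20380 probes carry 1 symbol and 691 several. The 9 genes, the pathway and marker lists and the alternatives were chosen with earlier results of these data known. Named genes were all members and, per list and comparison, the 2 genes with the smallest p. Ifnb1, Pdgfra and Bst2 were given in more detail after their values were seen. For the comparison of settings, Socs1, Socs3, Irf4, Ifna2 and Ifna4 were also named after their values were seen.

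Each comparison was fitted over all 22626 probes with limma 3.58.1 in R 4.3.3 (lmFit, then eBayes with trend), p-values were adjusted by Benjamini-Hochberg across the array, and the threshold was 0.05. Stretch comparisons had the animal as a block, since the design pairs pieces within animals; deviations of paired pieces correlated at 0.38 to 0.87 in vivo and 0.11 to 0.28 ex vivo. The comparison of settings used different animals and no block, and was centred on the median change. The fits were tested on simulated data for how well they estimate the size of planted changes. The simulated samples were independent of each other, so pairing within animals was not tested there. Alternatives were other normalization, centring, a mean of at least 6, eBayes without trend or robust, array weights, no block, muscle content, other sample sets and each sample or animal left out. The precision is limited by the number of arrays.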

Additional observations from a re-analysis of the deposited data

Results flagged for a closer look

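Ifitm1 in the ex vivo stretched piece of animal 4 was 9.52, well below the other 3, which lay at 9.998 to 10.08. Irf1 in the ex vivo shortened piece of animal 3 was 11.61, above the other 3 at 10.81 to 10.93. Ifitm3 in the ex vivo stretched piece of animal 3 was 13.44, apart from the other 3 only because the whole group had an SD of 0.0096. In each case the gap to the nearest sample, as a share of the group's range, passed Dixon's limit (0.858, 0.850 and 0.836). These were 3 of 32 groups examined, and chance flags about 1 group in 20. The stretch effect on Ifitm1 differed between the settings by 1.01, which passed the test of the difference itself.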

How the results depend on the processing

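Of 584 values of single genes under alternative settings, 561 kept their direction and their side of the threshold, 15 lost a call, 2 gained one and 6 changed sign. The number of the 8 genes called for a different stretch effect was 1, and it was 0 under quantile normalization, without the trend, with muscle content as a covariate and without the muscle-rich pairs, and 0 to 2 when single animals were left out. Without the replicate block that number was also 0, and no call of another comparison changed. Ex vivo, 1 gene was called when all samples entered 1 fit (Ifitm1, limma adjusted p = 0.0228). Signs changed in vivo for Irf1 (0.0033 with muscle content as a covariate, and -0.056 to 0.014 when single animals were left out) and ex vivo for Ifit1 (0.12 with that covariate, 0.13 without the muscle-rich pairs, and -0.14 to 0.027 when single animals were left out) and Ifit3 (-0.054 to 0.012 when single animals were left out). All 8 genes were called between settings whichever sample was left out. Each gene had 1 probe, so the alternative of another probe gave no value. With 4 animals ex vivo the precision is low.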
